A study of Homo sapiens with 6 samples.

Results

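The nuclear-encoded subunits of the respiratory chain and of the ATP synthase were examined in T24 cells after silencing of RBM3. The genes were protein-coding rows of the count table whose symbols follow the naming of complex I (NDUFA, NDUFB, NDUFC, NDUFS and NDUFV), complex II (SDHA to SDHD), complex III (UQCR and CYC1), complex IV (COX4 to COX8) and complex V (ATP5F, ATP5M and ATP5P), together with CYCS, the cytochrome c gene. The symbols matched 88 of the 63677 identifiers, and 68 of these had a mean of at least 1 CPM, the count of a gene scaled to a common library size, over the 6 libraries. Complex I contributed 29 genes, complex II 3, complex III 9, complex IV 10 and complex V 16, and CYCS was kept as a carrier of its own. NDUFA4 and NDUFA4L2 were counted with complex IV, where the NDUFA4 protein is placed today in spite of its name. COX4I1, the common form of subunit 4 of complex IV, NDUFAB1, the acyl carrier protein of complex I, and ATP5IF1, the inhibitor of the ATP synthase, are not reached by the symbols and were examined beside the 68 genes.

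T24 is an established cell line from a high-grade human bladder carcinoma. The cells of the siRBM3 group received a mixture of 2 siRNAs against RBM3, and the control group received a non-targeting siRNA, in both cases at 25 nM in a lipid reagent for 4.5 h, before an overnight recovery. Polyadenylated RNA was sequenced as single-end reads of 75 bases, with 3 libraries per group, named here by the replicate numbers of the labels as control 1, 3 and 5 and siRBM3 3, 4 and 5. The labels do not say whether the libraries came from separate cultures, and the p-values therefore measure only the spread between these libraries, which may be technical.

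Complexes I and II pass electrons from NADH and succinate to ubiquinone, complex III passes them on to cytochrome c, and complex IV to oxygen. Complexes I, III and IV pump protons across the inner mitochondrial membrane, and complex V uses the return of the protons to make ATP. A core of subunits is encoded by the mitochondrial genome for every complex except complex II, while most subunits are encoded in the nucleus, translated in the cytosol and imported, so that both genomes have to supply their products.

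RBM3, the silenced gene, had 225, 367 and 300.4 CPM in control 1, 3 and 5 and 54.1, 89.99 and 58.3 CPM in siRBM3 3, 4 and 5. The groups did not overlap, and a two-sided exact permutation test gave p = 0.1, which is the lowest p available with this number of libraries. By edgeR (quasi-likelihood, Benjamini-Hochberg adjustment) the difference was -2.14 ± 0.24 (SE) on the log2 scale at FDR 0.0822, and no gene of the 15099 tested had a smaller FDR. The libraries held between 23603992 and 45098612 counts, and the lowest count of a member in any library was 47. Transcripts of the mitochondrial genome took 1.63%, 2.86% and 2.10% of the counts in control 1, 3 and 5 and 9.40%, 4.15% and 2.32% in siRBM3 3, 4 and 5. The epithelial keratin KRT7 had at least 2351 CPM and KRT8, KRT18 and KRT19 at least 206 CPM in every library, whereas PTPRC of leukocytes, DCN of fibroblasts and ELANE of neutrophils stayed at or below 0.172 CPM.

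Most of the respiratory chain was measured at a high level, but 12 general subunits, as distinct from tissue isoforms, were nearly or entirely without counts. These were NDUFA7, NDUFA9, NDUFA11, NDUFA13, NDUFB8, NDUFC2 and NDUFV2 of complex I, SDHD of complex II, UQCR11 of complex III, COX6A1 and COX8A of complex IV and ATP5MF of complex V. The highest of them was NDUFA13 with 0.201 CPM, and NDUFA7, NDUFA9, NDUFB8 and UQCR11 had 0 counts in all 6 libraries, which allows a level of up to 0.0172 CPM at 3 counts over all libraries, counting error only. The lowest gene above the limit was NDUFA4L2 with 2.89 CPM, and no gene lay within 1.5 times of the limit on either side. All 12 genes share exon bases with another annotated gene on the same strand, against 14 of the 68 genes above the limit (20.6%). For 10 of the 12 this other gene is a readthrough gene, a transcript unit that runs through a pair of neighbouring genes, against 4 of the 68. Of the 14 general subunits with a same-strand readthrough gene, 10 lay below the limit (71.4%), compared with 2 of the 66 without one (3.03%). Among all protein-coding genes of the annotation the shares below the limit were 57.0% of 1121 and 39.6% of 17976. Neither the annotation release nor the strand setting of the authors' counting is known here, and the part of the overlaps in the low counts was not tested. The values of these 12 genes are therefore not read as a lack of expression.

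The other 8 genes below the limit were the tissue isoforms COX6A2, COX6B2, COX7A1, COX7B2 and COX8C, known from muscle or testis, the readthrough genes NDUFC2-KCTD14 and ATP5MF-PTCD1, and ATP5MGL. COX4I2, the lung isoform of subunit 4, likewise reached 0.0376 CPM in a single library, while its common form COX4I1 had between 277 and 339 CPM. The common forms COX6B1, COX7A2 and COX7B were present at means of 89.5, 95.8 and 149 CPM. Few of the counted reads were assigned to processed copies. Of 169 annotated pseudogenes of these families only ATP5F1EP2 (13.2 CPM), COX6A1P2 (5.52 CPM) and NDUFV2P1 (2.93 CPM) reached 1 CPM. How reads that match both a parent gene and a copy were counted is not known here. The 169 pseudogenes had 23.3 CPM in sum, against 7372 CPM for the 68 genes, both scaled by library size only. COX6A1P2 and NDUFV2P1 were higher than their parent genes, COX6A1 with 0.110 CPM and NDUFV2 with 0.00653 CPM, and reads of these near-identical pairs are uncertain.

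**Figure D1:**
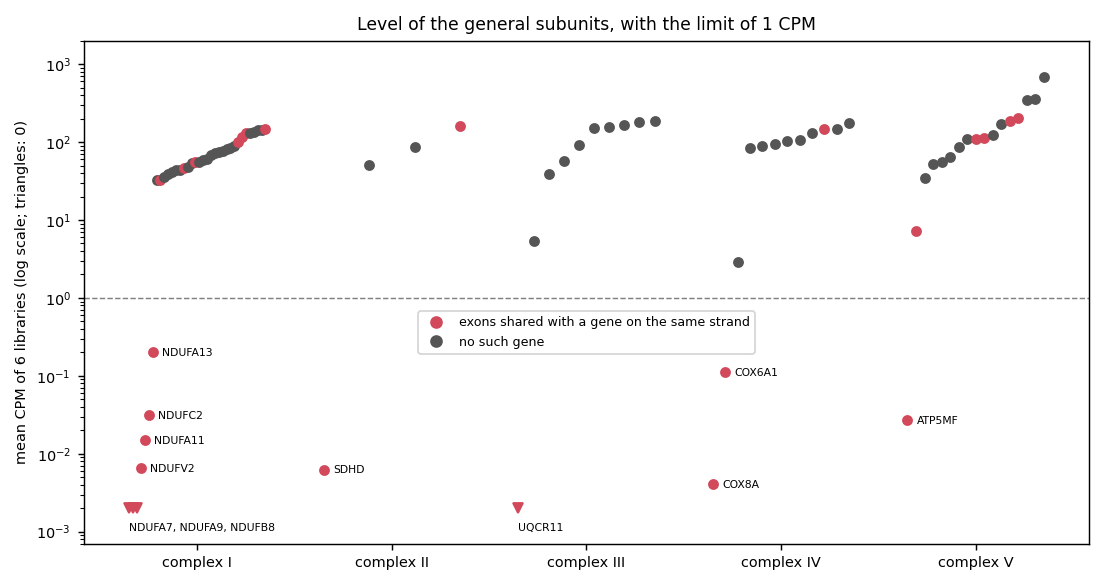
Mean level of each general subunit over the 6 libraries in CPM on a log scale, by complex, with red points for genes that share exon bases with another gene on the same strand, triangles for genes at 0 and a dashed line at the limit of 1 CPM. The 12 genes below the line are all red, and CPM are not divided by transcript length here.

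Per kilobase of the canonical transcript, the levels within each complex were spread widely. ATP5F1B, the catalytic beta subunit of the ATP synthase, was the highest of the 68 genes with 387 CPM per kilobase, and ATP5PO, which joins the stalk of the enzyme to its head, was the lowest of complex V with 9.64. In complex III the values ran from 12.7 for UQCRFS1, the Rieske iron-sulfur protein, to 279 for UQCRH, the hinge protein that contacts cytochrome c. In complex I they ran from 5.92 for NDUFA5 to 264 for NDUFS5, in complex IV from 3.07 for NDUFA4L2 to 235 for COX7C (COX4I1, outside the symbols, had 411), and in complex II from 39.3 for SDHC to 84.5 for SDHB. The medians were 88.7, 59.2, 62.4, 104 and 104 CPM per kilobase for complexes I to V. The canonical transcripts of NDUFA5 and UQCRFS1 are long, with 5496 and 3086 bases, and whether the cells use shorter ones was not tested. ATP5PO shares 21.6% of its exon bases with other genes.

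Whether silencing of RBM3 was accompanied by a change of these genes was tested in edgeR over the whole table, and differentially expressed genes (DEGs) had to pass both a 1.5-fold difference and an FDR limit of 0.01. None of the 68 genes was a DEG by edgeR, DESeq2 or limma-voom. The background in edgeR was 0.0% of 15099 genes tested, limma-voom likewise called 0 of them, and DESeq2 called 1.22% of 13068 genes with an adjusted p. In edgeR and limma-voom the lack of a DEG therefore does not set the members apart. With the replicate number as a block, edgeR called 2.23% of all genes and 0 members. No member passed an FDR of 0.1 in edgeR, against 0.55% of all genes. At an unadjusted p under 0.05 there was 1 gene higher in siRBM3 cells, NDUFS5, and 1 lower, CYC1, together 2.94% of the members, where 13.1% of all genes passed (6.56% higher and 6.58% lower). The siRBM3 libraries lay above all control libraries in 1 member and below them in 5, together 8.82%, against 19.9% of all genes (9.99% above and 9.93% below). At the unadjusted limit and in the count without overlap the share of the members lay below that of all genes, a difference that was not tested.

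Log2 fold changes of the 68 genes lay between -0.36 and 0.98, with 31 above 0 and 37 below, and their median of -0.01 was the same as that of all genes. With library size as the only scaling the split was 24 and 44 and the median -0.07, while the median of all genes moved from -0.01 to -0.06. The standard errors of the members ran from 0.083 to 0.496 with a median of 0.137, against 0.171 over all genes. A fold change of 1.5, without regard to a test, was passed by 3 of the members (4.41%, against 7.92% of all genes), and all 3 were higher in siRBM3 cells, COX7B, NDUFA4 and ATP5MK. By complex the median log2 fold changes were -0.05 for complex I, -0.02 for complex II, -0.00 for complex III, 0.17 for complex IV and 0.04 for complex V. The value of complex IV was -0.00 without control 1 and 0.0048 without siRBM3 3 and was 0.37 without siRBM3 5. The value of complex V turned to -0.01 with library size only, and that of complex II to 0.05 with offsets for length and GC content.

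**Figure D2:**
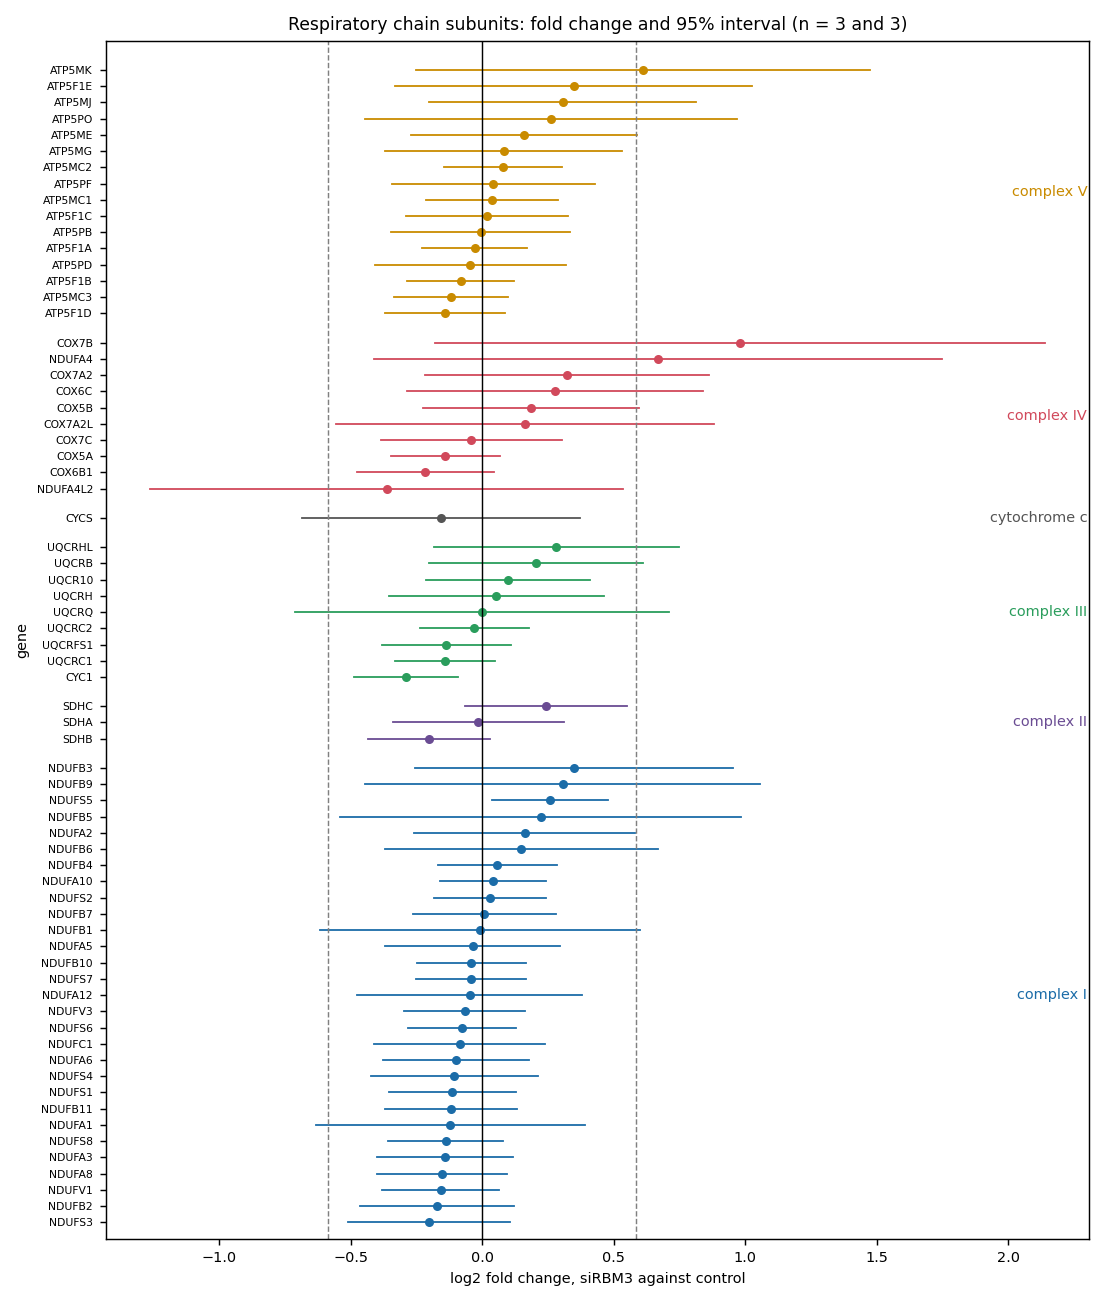
Log2 fold change of siRBM3 against control cells for each of the 68 genes (points) with its 95% interval from the edgeR fit (bars), by complex, with dashed lines at a fold change of 1.5. Only the intervals of NDUFS5 and CYC1 leave out 0, and COX7B at 0.98 is the farthest from it.

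The count of members at an unadjusted p under 0.05 rested on single libraries. Without siRBM3 5, 14 members were higher in siRBM3 cells (20.6%, against 5.41% of all genes in the same fit), namely COX7B, NDUFA4, COX7A2 and COX6C of complex IV, ATP5MK, ATP5F1E, ATP5MJ and ATP5ME of complex V, NDUFS5, NDUFB3, NDUFB9, NDUFB6 and NDUFA2 of complex I, and SDHC. None of the 14 reached an FDR of 0.1 in that fit, where COX7B had 0.231 by edgeR with Benjamini-Hochberg adjustment. Without control 1, siRBM3 3 or siRBM3 4 the number of members higher was 0, and without control 3 it was 2. The number of members lower was 2 without control 1 and otherwise stayed at 1.

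Complex I takes electrons from NADH, and its core subunits of the peripheral arm carry the flavin and the iron-sulfur clusters. NDUFV1, which binds NADH, had 164, 143 and 158 CPM in control 1, 3 and 5 and 129, 146 and 142 CPM in siRBM3 3, 4 and 5. The groups overlapped, and its log2 fold change was -0.16 (95% interval -0.38 to 0.06). NDUFS3 had 43.1, 53.4 and 51.8 CPM in control cells and 46.4, 45.9 and 36.5 CPM in siRBM3 cells, with a log2 fold change of -0.20 (-0.51 to 0.11). For NDUFS8, an iron-sulfur subunit, the log2 fold change was -0.14 (-0.36 to 0.08). Of the 6 core subunits tested 5 were below 0, and the median was -0.13. The seventh nuclear-encoded core subunit, NDUFV2, was among the genes without usable counts.

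The 23 accessory subunits of complex I had a median log2 fold change of -0.04, with 9 above 0 and 14 below. NDUFS5 (ENSG00000168653), an accessory subunit of the membrane arm, lies on chromosome 1 (GRCh37, 39491990 to 39500308, plus strand). Its level was 114, 118 and 126 CPM in control 1, 3 and 5 and 148, 149 and 130 CPM in siRBM3 3, 4 and 5, so that the groups were apart. The difference was 0.26 ± 0.10 (SE) on the log2 scale, at FDR 0.309 by edgeR with Benjamini-Hochberg adjustment and 0.297 by DESeq2. NDUFB3 and NDUFB9, also of the membrane arm, had log2 fold changes of 0.35 (-0.25 to 0.95) and 0.31 (-0.45 to 1.06), with wide intervals. In NDUFB9 the libraries ran from 83.6 CPM in siRBM3 5 to 193 CPM in siRBM3 3, with the control libraries between them. NDUFAB1 had 50.5 to 84.5 CPM in control and 49.1 to 91.0 CPM in siRBM3 cells.

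Complex II is also an enzyme of the citrate cycle. SDHA, which carries the flavin, had 182, 134 and 165 CPM in control 1, 3 and 5 and 134, 172 and 170.1 CPM in siRBM3 3, 4 and 5, with a log2 fold change of -0.02 (-0.34 to 0.31), which turned to 0.05 with offsets for length and GC content. SDHB (ENSG00000117118; chromosome 1, 17345159 to 17380527, minus strand), the iron-sulfur subunit, had 81.6, 96.4 and 97.4 CPM in control cells and 81.5, 77.7 and 80.1 CPM in siRBM3 cells. The groups did not overlap, although control 1 and siRBM3 3 differed by less than 1 CPM. The difference was -0.20 ± 0.10 (SE) on the log2 scale, at FDR 0.440 by edgeR with Benjamini-Hochberg adjustment. The membrane anchor SDHC lay on the other side with 0.24 (-0.07 to 0.55), and the second anchor, SDHD, could not be read.

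In complex III the gene with the smallest p of all members was CYC1 (ENSG00000179091), which encodes cytochrome c1, the subunit that hands electrons to cytochrome c. Its level was 163, 182 and 177 CPM in control 1, 3 and 5 and 139, 146 and 141 CPM in siRBM3 3, 4 and 5, a separation of the groups with a narrow spread in both. The difference was -0.29 ± 0.086 (SE) on the log2 scale, at FDR 0.229 by edgeR with Benjamini-Hochberg adjustment and 0.136 by DESeq2. Leaving out 1 library at a time gave values from -0.34 to -0.26. UQCRC1, a large matrix subunit of the complex, had 188, 184 and 197 CPM in control and 166, 173 and 178 CPM in siRBM3 cells, again without overlap, and a log2 fold change of -0.14 (-0.33 to 0.05). UQCRFS1 had -0.14 (-0.38 to 0.11). On the other side, UQCRHL, a copy of the hinge protein gene, had 0.28 (-0.19 to 0.75) at 4.03 to 6.19 CPM, UQCRB had 0.20 (-0.20 to 0.61) and UQCR10 0.10 (-0.22 to 0.41). UQCRH itself was at 0.05 (-0.36 to 0.46), and -0.01 with library size only. CYCS, the mobile carrier between complexes III and IV, ran from 33.8 to 60.1 CPM in control and from 32.0 to 49.5 CPM in siRBM3 cells, with a log2 fold change of -0.16 (-0.69 to 0.37).

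The largest differences between the group means, and the largest spread between libraries, were both found in complex IV. COX7B (ENSG00000131174; chromosome X, 77154937 to 77162873, plus strand), a small membrane subunit, had 66.2, 137 and 97.6 CPM in control 1, 3 and 5 and 305, 218 and 70.0 CPM in siRBM3 3, 4 and 5. Its siRBM3 libraries thus included the highest levels of all as well as one within the control range. The difference of 0.98 ± 0.50 (SE) on the log2 scale came with FDR 0.459 by edgeR with Benjamini-Hochberg adjustment, and it was 0.52 without siRBM3 3 and 1.38 without siRBM3 5. NDUFA4 (ENSG00000189043; chromosome 7, 10971570 to 10979780, minus strand) had 66.1, 141 and 92.4 CPM in control and 246, 165 and 65.6 CPM in siRBM3 cells, in the same order of libraries as COX7B except that its lowest library was siRBM3 5. Its log2 fold change was 0.67 (-0.41 to 1.75), with 0.20 without siRBM3 3, 0.44 without control 1, 1.002 without control 3 and 1.04 without siRBM3 5. NDUFA4L2, known as a gene induced by hypoxia, had only 1.76 to 4.51 CPM, with a log2 fold change of -0.36 (-1.26 to 0.54).

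The remaining subunits of complex IV were closer to 0. COX7A2 had a log2 fold change of 0.32 (-0.22 to 0.86), COX7A2L, which helps to join complexes III and IV into supercomplexes, 0.16 (-0.56 to 0.88), and COX7C -0.04 (-0.39 to 0.30). COX5A had 104, 109 and 112 CPM in control and 101, 103 and 91.6 CPM in siRBM3 cells, without overlap of the groups and with a log2 fold change of -0.14 (-0.35 to 0.07). COX6B1, which faces the intermembrane space, had -0.22 (-0.48 to 0.04). COX4I1, needed for the assembly of the complex, had 285, 328 and 339 CPM in control and 318, 333 and 277 CPM in siRBM3 cells, a log2 fold change of -0.04 (-0.29 to 0.22).

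**Figure D3:**
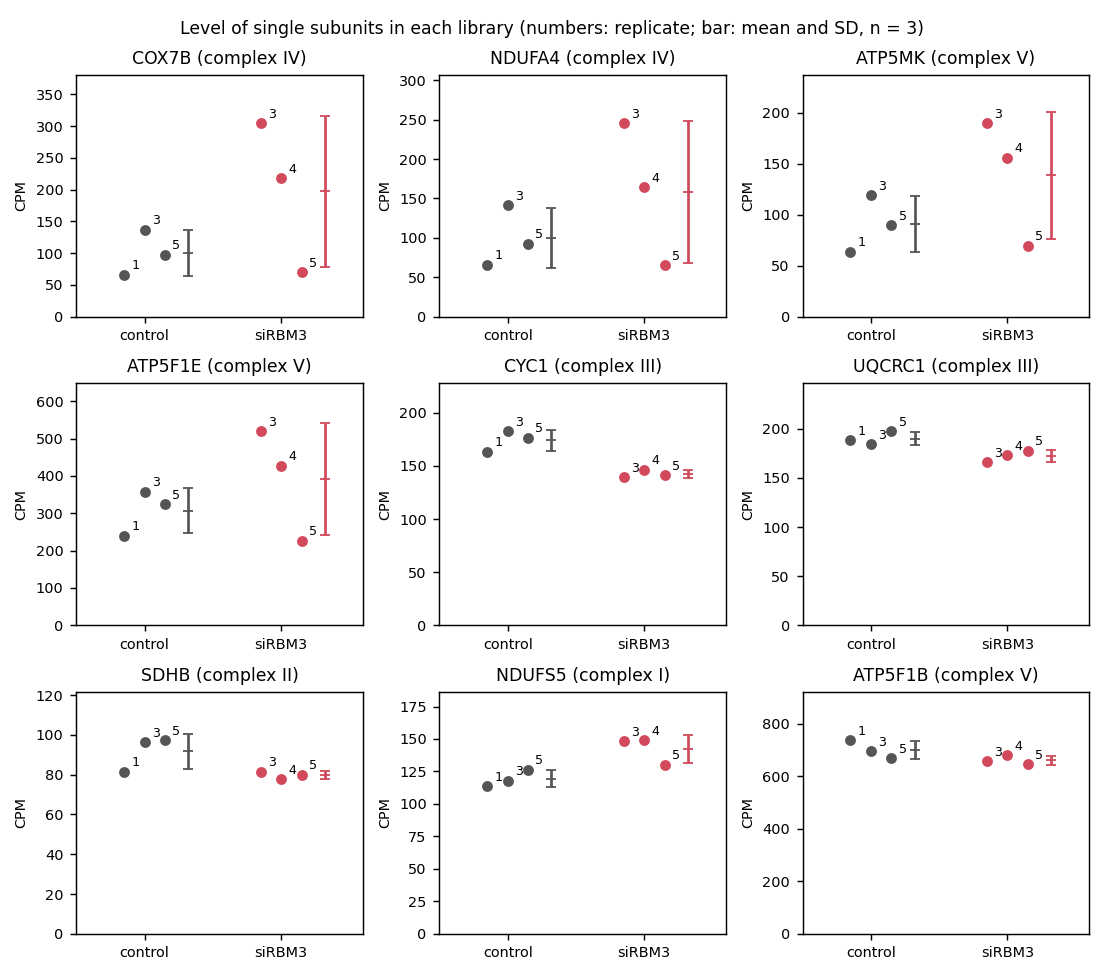
Level in CPM of 9 subunits in each control (grey) and siRBM3 (red) library, with the replicate number beside each point and the mean and SD of the group as a bar (n = 3). COX7B, NDUFA4, ATP5MK and ATP5F1E are low in control 1 and siRBM3 5 and high in siRBM3 3 and 4, whereas CYC1, UQCRC1, SDHB and NDUFS5 separate the groups with small differences.

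Complex V consists of a catalytic head and a rotor and stator in the membrane. ATP5F1B of the head had 738, 695 and 668 CPM in control 1, 3 and 5 and 658, 680 and 646 CPM in siRBM3 3, 4 and 5, with a log2 fold change of -0.08 (-0.29 to 0.12). The epsilon subunit gene ATP5F1E, of the central stalk, had 240, 358 and 323 CPM in control and 519, 427 and 227 CPM in siRBM3 cells, and its log2 fold change of 0.35 had an interval from -0.33 to 1.03. The gamma subunit gene ATP5F1C, added here after its values were seen for its promoter, ran from 107 to 136 CPM in control and from 103 to 135 CPM in siRBM3 cells, with a log2 fold change of 0.02 (-0.29 to 0.33). The delta subunit gene ATP5F1D was at -0.14 (-0.37 to 0.09). ATP5MC1, ATP5MC2 and ATP5MC3 encode the same mature protein, the c subunit of the rotor ring, from separate genes. Their log2 fold changes were 0.04 (-0.21 to 0.29), 0.08 (-0.14 to 0.30) and -0.12 (-0.34 to 0.10), and in ATP5MC3 the groups did not overlap, with 114 to 117 CPM in control and 96.1 to 112 CPM in siRBM3 cells. ATP5MC1 turned to -0.01 with library size only.

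ATP5MK (ENSG00000173915; chromosome 10, 105148798 to 105156249, minus strand), a small membrane subunit that joins ATP synthases into dimers, had 63.7, 119 and 89.7 CPM in control 1, 3 and 5 and 190, 156 and 69.4 CPM in siRBM3 3, 4 and 5. Its libraries followed the order seen in COX7B, and the log2 fold change of 0.61 (-0.25 to 1.47) was the largest of complex V, with 0.31 without siRBM3 3 and 0.93 without siRBM3 5. ATP5MK shares 18.1% of its exon bases with other genes and is uncertain to that extent. The same limit applies to other members named here. The share is 61.3% for ATP5ME, 24.5% for UQCR10, 23.2% for ATP5F1E, 21.7% for SDHA and 21.6% for ATP5PO. For NDUFS3 it is 18.1%, for NDUFB9 13.2%, for NDUFA2 12.1%, for NDUFV1 12.0% and for NDUFB3 and COX6C 11.8%. Members with smaller shares are not listed. ATP5MJ had 0.31 (-0.20 to 0.81) and ATP5PO, at 4.96 to 10.5 CPM, 0.26 (-0.45 to 0.97). The inhibitor gene ATP5IF1 was at -0.06 (-0.38 to 0.25).

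Summed over its genes, the libraries of the groups overlapped in every complex. Complex I had 2239 ± 185 CPM in control and 2239 ± 225 CPM in siRBM3 cells (SD, n = 3 in each group here and in the next values). Complex II had 299 ± 13.5 and 294 ± 16.5 CPM, and complex III 1044 ± 95.9 and 1020 ± 114 CPM. Complex IV had 981 ± 183 and 1180 ± 380 CPM, and complex V 2653 ± 169 and 2759 ± 416 CPM. In RNA from whole cultures, fewer cells that express a gene and less RNA per cell cannot be told apart.

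The libraries of one group differed more than the groups did, and they differed in an order that many subunits shared. Control 1 and siRBM3 5 were the 2 lowest of the 6 libraries in 44 of the 68 genes (64.7%), against 11.3% of all genes tested. This order was noticed after the values had been seen and is given as a description. It held for 18 of 29 genes of complex I, 6 of 9 of complex III, 8 of 10 of complex IV and 11 of 16 of complex V, but for 0 of the 3 of complex II. Among the genes of complex I it held for 2 of the 6 core subunits and 16 of the 23 accessory subunits. In 18 genes (26.5%, against 1.98% of all genes) siRBM3 3 and siRBM3 4 were at the same time the 2 highest libraries. COX7B, NDUFA4, ATP5MK and NDUFA4L2 varied most between libraries, with a highest level 4.61, 3.75, 2.98 and 2.57 times the lowest.

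As log2 deviations from the mean of the 6 libraries, the medians over the 68 genes were -0.19, 0.11 and 0.06 in control 1, 3 and 5 and 0.10, 0.07 and -0.20 in siRBM3 3, 4 and 5. In complex IV they were -0.42, 0.12 and -0.00 in control and 0.45, 0.24 and -0.42 in siRBM3 cells. The median over all genes tested stayed between 0.00 and 0.01 in every library. The 77 genes of mitochondrial ribosomal proteins, another set of nuclear genes for mitochondrial proteins, showed the same 2 lowest libraries in 31 of 69 genes tested (44.9%), but siRBM3 3 and 4 as the 2 highest in addition in only 2 of them (2.90%).

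**Figure D4:**
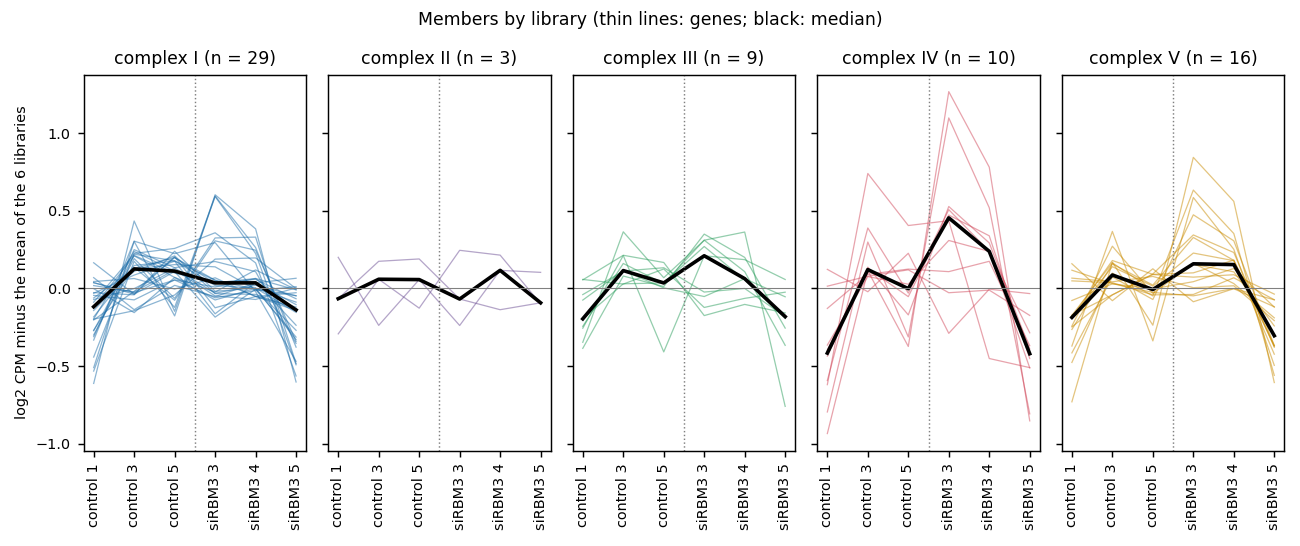
Log2 CPM of each member minus its mean over the 6 libraries, by complex, with a thin line per gene, the median in black and a dotted line between control and siRBM3 libraries. The median dips in control 1 and siRBM3 5 in complexes I, III, IV and V, and most deeply in complex IV, at -0.42 in both.

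The base composition of the transcripts differed between the genes with this order and the other members. The 44 genes with control 1 and siRBM3 5 lowest had a median GC content of 44.6% and a median transcript length of 750 bases, against 51.3% and 1094 bases for the other 24. The SD of log2 CPM over the 6 libraries had a median of 0.272 in the 44 genes and 0.109 in the 24. Across the 68 genes, the Pearson correlation of GC content with the deviation in a library was 0.46, -0.33 and 0.40 in control 1, 3 and 5 and -0.44, -0.45 and 0.42 in siRBM3 3, 4 and 5. Across 14747 genes tested the correlations were 0.28, -0.19, 0.10, -0.19, -0.04 and 0.03. The correlations did not follow the order of the libraries throughout. Control 5 had 0.40 over the members, near the 0.42 of siRBM3 5, although its median deviation was 0.06. The deviations of a gene sum to 0 over the libraries, and the points of a library share its depth and preparation, so these values describe the libraries and carry no test. With offsets for length and GC content the median of the 68 genes was 0.01, and 2 genes were higher and 2 lower at the unadjusted limit, against 14.0% of all genes in either direction. The part of base composition, transcript length or handling of the libraries in the shared order was not tested.

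**Figure D5:**
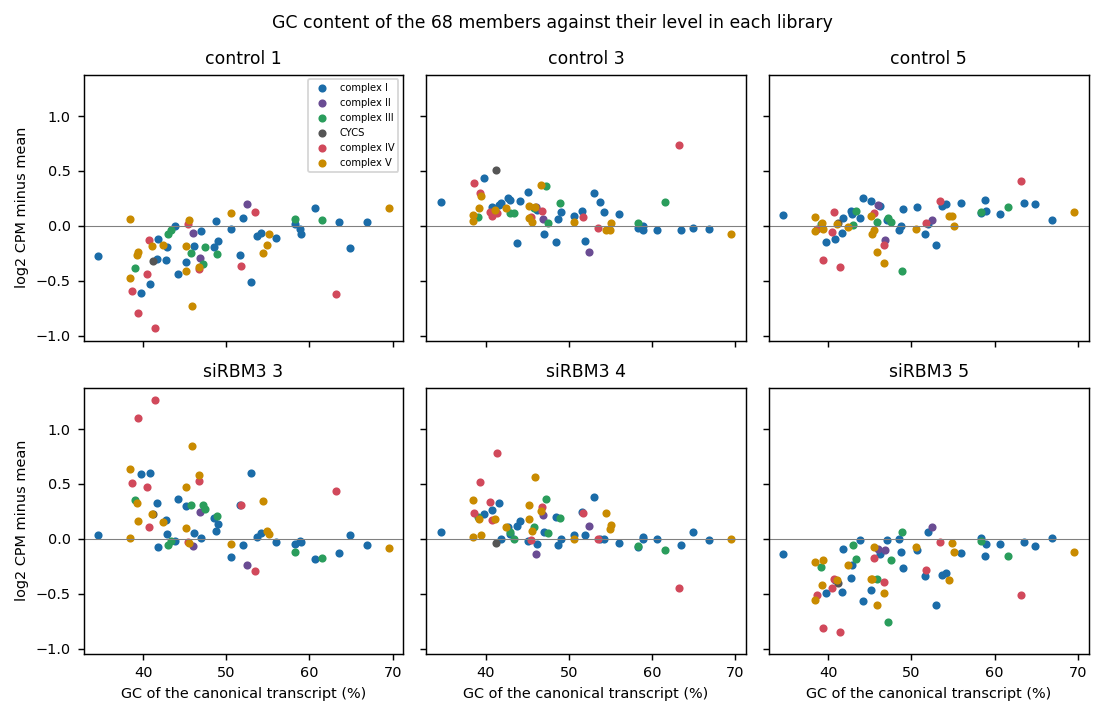
GC content of the canonical transcript in percent (x axis) against log2 CPM minus the mean of the 6 libraries (y axis) for the 68 genes, with a panel for each library and colours for the complexes. The points slope upwards in control 1 (r = 0.46), control 5 (r = 0.40) and siRBM3 5 (r = 0.42) and downwards in the other 3 libraries.

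The 13 subunits encoded by the mitochondrial genome had their highest levels in siRBM3 3. All 13 were above 0, with log2 fold changes from 1.10 for MT-ND3 to 1.84 for MT-ND6 (median 1.41). The unadjusted limit was passed by 12 of them (92.3%, against 6.56% of all genes for higher levels). Since all 13 were highest in the same library, the 12 are not separate results. Of the 13 genes 0 were DEGs, and the groups overlapped in every one. Their summed level was 12489, 23116 and 16389 CPM in control 1, 3 and 5 and 85173, 34044 and 18260 CPM in siRBM3 3, 4 and 5. The median was 0.63 without siRBM3 3, where 2 genes passed the unadjusted limit. Without control 1, control 3 or control 5 the number that passed was 0, 2 and 1, without siRBM3 4 it was 12 and without siRBM3 5 it was 13, and with the replicate block it was 0. The smallest p belonged to MT-ATP8 and MT-ND5, with 95% intervals of the log2 fold change from 0.44 to 3.18 and from 0.31 to 2.69. Their FDR values were 0.270 and 0.285 by edgeR with Benjamini-Hochberg adjustment. MT-ATP8 shares 22.2% of its exon bases with other genes and is uncertain to that extent.

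The factors that assemble the complexes were mostly below 0. Of 52 assembly factors 46 were tested, 13 above 0 and 33 below, with a median log2 fold change of -0.11, and 6 passed the unadjusted limit on the lower side (13.0%, against 6.58% of all genes). This count was 7 without control 1, 3 without control 3 or siRBM3 4, 2 without siRBM3 5 and 1 without control 5 or siRBM3 3. Without control 3 the median was -0.02, with 21 above 0 and 25 below. The smallest p were those of TACO1, which activates translation of a mitochondrial complex IV subunit, with -0.34 (standard error 0.11), and of ATPAF1, a chaperone of the ATP synthase, with -0.27 (standard error 0.10). TACO1 shares 40.9% of its exon bases with other genes and is uncertain to that extent. COX18 and LYRM7 had the smallest p among those above 0, with 0.28 (standard error 0.17) and 0.31 (standard error 0.19). Of the mitochondrial ribosomal proteins 55 were below 0 and 14 above, and the median was -0.12, with 10 genes past the unadjusted limit on the lower side (14.5%). This count was 14 without control 1, 4 without control 3, control 5 or siRBM3 3 and 5 without siRBM3 4 or siRBM3 5. The median was -0.20 without control 1 and -0.08 without control 3. Over all genes, 993 of 15099 were lower at this limit with all libraries. This number was 1325 of 15341 without control 1, 814 of 15436 without control 3 and 695 of 15423 without control 5. It was 826 of 15445 without siRBM3 3, 707 of 15437 without siRBM3 4 and 770 of 15405 without siRBM3 5. MRPL17 had the smallest p, with 87.9, 97.2 and 101.8 CPM in control and 73.8, 79.4 and 72.5 CPM in siRBM3 cells. MRPL46 followed with -0.88 (standard error 0.25) at 1.42 to 4.18 CPM. MRPL46 shares 11.3% of its exon bases with other genes and is uncertain to that extent. Neither list held a DEG.

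Among 13 genes for enzymes of the citrate cycle 3 were above 0 and 10 below, with a median of -0.14. IDH3A, the catalytic subunit of the NAD-dependent isocitrate dehydrogenase, had 42.0, 40.7 and 39.5 CPM in control 1, 3 and 5 and 27.1, 29.9 and 29.1 CPM in siRBM3 3, 4 and 5. Its groups did not overlap, and the difference was -0.51 ± 0.10 (SE) on the log2 scale, at FDR 0.118 by edgeR with Benjamini-Hochberg adjustment and 0.00337 by DESeq2, below a 1.5-fold difference in both. IDH3A shares 38.8% of its exon bases with other genes and is uncertain to that extent. DLD was second with -0.25 (standard error 0.11), and IDH3G, a regulatory subunit of the same isocitrate dehydrogenase, was at 0.05 (-0.17 to 0.27). Of 12 regulators of mitochondrial biogenesis 11 were tested. GABPA, the DNA-binding subunit of an ETS factor that acts on promoters of respiratory genes, had 22.5, 21.4 and 20.02 CPM in control and 32.7, 29.2 and 33.1 CPM in siRBM3 cells. The groups did not overlap here either. The difference of 0.57 ± 0.11 (SE) on the log2 scale had FDR 0.118 by edgeR with Benjamini-Hochberg adjustment and 0.00269 by DESeq2, again below 1.5-fold. GABPA shares 12.1% of its exon bases with other genes and is uncertain to that extent. YY1 was at 0.19 (standard error 0.08), POLRMT, the mitochondrial RNA polymerase, at -0.22 (standard error 0.11), and GABPB1, the partner of GABPA, at -0.23 (standard error 0.13). NRF1, another factor that acts on these promoters, was at -0.17 (-0.46 to 0.11), and TFAM, which packs and transcribes mitochondrial DNA, at -0.18 (-0.49 to 0.13).

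Since GABPA, YY1 and NRF1 are known for acting on promoters of this kind, short sequences that they recognise were searched on both strands in the promoters of the RefSeq annotation (GRCh38.p14, from 250 bases before to 50 bases after the start of a gene), in which 54 of the 68 genes were found. The sequence GCATGCGC, part of the site of NRF1, was present in 12 of the 54 promoters (22.2%) and in 4.26% of 15842 promoters of protein-coding genes. AAGATGGCG, known for YY1, was present in 6 (11.1%, against 2.74%), and CCGGAAGT, the ETS site of GABPA, in 6 (11.1%, against 6.19%). The 15842 promoters were not filtered by expression, whereas the 54 genes had at least 1 CPM. The sets are therefore unlike, and the differences in share were not tested. No match of one sequence overlapped a match of another, but GCATGCGC shares most letters with its own reverse complement and can match on both strands at once. A match describes the letters only, and no binding was measured. AAGATGGCG also holds ATG, the letters of a start codon, and the window runs 50 bases past the start of a gene. Matches there, as in SDHB and UQCRC1, may be the beginning of the coding sequence, which was not tested. The following stretches of 30 bases, with the match in capitals, are shown for members described above. SDHB and UQCRC1 hold the YY1 sequence just behind the start, ATP5MK and UQCRH the ETS sequence before it, and ATP5F1C and CYCS the NRF1 sequence. SDHB also holds the NRF1 sequence, farther before the start and not printed here.
SDHB, chr1:17054003-17054032, minus strand: gtcaggagccAAGATGGCGgcggtggtcgc
UQCRC1, chr3:48609604-48609633, minus strand: ctgcagctggAAGATGGCGgcgtccgtggt
ATP5MK, chr10:103396617-103396646, minus strand: gtgcaattcttCCGGAAGTgtgggcgggct
UQCRH, chr1:46303640-46303669, plus strand: gagtgtgccgcACTTCCGGccagatcgccg
ATP5F1C, chr10:7788146-7788175, plus strand: ggagcttcggcGCATGCGCgctgaggcctg
CYCS, chr7:25125411-25125440, minus strand: catgctcgccaGCATGCGCgcgcaggtcct
The capitals of UQCRH are the reverse complement of the ETS sequence. In their levels these genes did not form a group, since SDHB and UQCRC1 were lower in every siRBM3 library, whereas the groups overlapped for the other 4. Of the 38 genes with a promoter and with control 1 and siRBM3 5 lowest, 6 held the ETS sequence, 6 the NRF1 sequence and 3 the YY1 sequence, and of the 16 others 0, 6 and 3. This split uses an order that was noticed after the values had been seen, and these small counts were not tested.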

How the data were processed

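RNA sequencing libraries of T24 cells, 3 per group, were grouped by their labels. The authors trimmed the reads with BBDuk, aligned them with STAR to the hg19 build (GRCh37), flagged duplicate reads in Picard, and made the gene table in featureCounts (Subread). The deposited values are raw counts. The annotation release, the strand setting and the handling of duplicates in counting were not stated in these sources. A read that falls on more than 1 gene may be left out of such counts, which bears on overlapping genes.

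Of 63677 identifiers 55665 were matched to GENCODE (release 44 mapped to GRCh37), which gave symbols, positions, length and GC content. The limit of 1 CPM was applied to library-size CPM, and all other levels are CPM scaled by TMM factors. Genes were filtered (minimum count 10, minimum total count 15) and tested in edgeR 4.0.16 by the quasi-likelihood method with a term for the siRNA, and the Benjamini-Hochberg adjustment covered 15099 genes. The thresholds for a DEG are those of the study, which used DESeq2. DESeq2 1.42.0, limma-voom (limma 3.58.1), RLE factors, library size only, other filters, offsets for length and GC content (natural splines with 5 degrees of freedom each), the replicate number as a block and each library left out were alternatives. The fits were tested on simulated data. R 4.3.3 and Python 3.11.15 were used.

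Genes were named by a rule: the silenced gene, markers, SDH genes, CYC1, CYCS, the smallest p in each direction and the extremes of level per complex, isoform pairs, and the smallest p in each direction of the other lists. The shared order of libraries, and genes given with it, were chosen after their values were seen. The members and lists were chosen with earlier results of these data known. Sequences of promoters are from RefSeq. A gene that the rule names is not reported here.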

Additional observations from a re-analysis of the deposited data

How the results depend on the processing

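The number of members that were DEGs was 0 under every alternative run. Over all genes, DESeq2 called 159, edgeR without a filter 279, the block 336 and the fit without control 1 called 1. At both thresholds every other alternative fit called 0 genes, so 0 members there does not set the members apart. RBM3 passed both thresholds with DESeq2 (-2.14, adjusted p = 3.87e-14), without a filter on low counts (-2.13, edgeR FDR 4.04e-25) and with the replicate number as a block (-2.57, edgeR FDR 2.69e-05), and lay between -2.40 and -1.96 with each library left out. Members higher at an unadjusted p under 0.05 numbered 2 with offsets for length and GC content, 0 with library size only, 5 without a filter and 0 with the block, and 0 to 14 with a library left out. Members lower numbered 2 with the offsets and 13 with the block, and 1 to 2 with a library left out. Over all genes tested, 997 of 14747 were higher and 1070 lower with the offsets, and 611 of 15099 higher with library size only. Without a filter 1413 of 30090 were higher and 1423 lower, and with the block 1714 of 15099 were higher and 2031 lower. With a library left out, 672 to 1141 of all genes were higher and 695 to 1325 lower. The number of mitochondrially encoded genes at that limit was 12, and it was 10 with library size only, 9 with DESeq2, 4 with limma-voom and 0 without a filter. Without a filter 2 assembly factors were lower at the limit. The median of complex II ran from -0.13 to 0.092 and that of complex III from -0.10 to 0.21 with a library left out, and that of complex IV from -0.00045 to 0.37, with the lowest value without control 1. The cause of these shifts was not tested. Signs of single genes turned for ATP5MC1 (-0.014) and UQCRH (-0.0062) with library size only and for SDHA (0.046) with the offsets. With a library left out the log2 fold changes ran from -0.018 to 0.10 for ATP5MC1, from -0.00013 to 0.54 for ATP5PO, from -0.11 to 0.037 for COX4I1, from -0.065 to 0.42 for COX7A2L, from -0.14 to 0.11 for COX7C, from -0.34 to 0.091 for CYCS, from -0.17 to 0.065 for NDUFA5, from -0.13 to 0.092 for SDHA, from -0.024 to 0.21 for UQCR10 and from -0.10 to 0.22 for UQCRH. The other 478 values of single genes and 126 summary values kept their direction or stayed within 1 SD of the libraries or 1.5 times of a count.

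The groups share the replicate numbers 3 and 5, and the labels do not say what a number marks. The deviations of same-numbered libraries correlated at 0.53 over all genes for number 3 and 0.088 for number 5 (0.88 and 0.16 over the members), while control 1 and siRBM3 5, of different numbers, correlated at 0.79 over the members. With the replicate number as a block, which leaves 1 residual degree of freedom, edgeR called 336 genes (2.23%) and 0 members. Control 1 and siRBM3 4 have numbers that occur in 1 group only and add nothing to the difference in that fit. It therefore rests on control 3 and 5 and siRBM3 3 and 5, and is not an adjusted result of all libraries. The 13 members lower at an unadjusted p under 0.05 (19.1%, against 13.5% of all genes) included CYC1, CYCS and NDUFS3, and the median of the members was -0.12, that of complex IV -0.11 and that of complex V -0.058. COX7B, NDUFA4 and ATP5MK were at 0.35, 0.16 and 0.16 with the block. Assembly factors lower at the unadjusted limit numbered 18 and mitochondrial ribosomal proteins 32. GABPA passed both thresholds for a DEG with the block (0.67, edgeR FDR 0.00708), and no other gene of the lists did. The block turned the signs of ATP5MC1 (-0.051), ATP5MC2 (-0.0060), COX7A2L (-0.18), NDUFB9 (-0.058), SDHA (0.023) and UQCRH (-0.12).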
